A study of Mus musculus with 6 samples.

Results

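DNA replication and S phase genes were followed in bone marrow of leukaemic mice, through 45 listed genes of origin licensing, helicase activation, DNA synthesis, nucleotide supply and the G1/S switch. The members were taken by gene symbol from the deposited annotation. Probe sets named 44 of the 45, with 95 probe sets of 45037 in all, and no probe set named Chaf1a. RNA from marrow was hybridised to Affymetrix MG-430_2.0 arrays, 1 array a sample. The 3 samples labelled Gfi1b KO carry floxed Gfi1b alleles (fl/fl), the MxCre transgene and the NUP98/HOXD13 transgene. The 3 wildtype samples carry wildtype Gfi1b with the same MxCre and NUP98/HOXD13 transgenes. NUP98/HOXD13 is a fusion of a nucleoporin gene and a homeobox gene that models myelodysplastic syndrome and acute myeloid leukaemia in mice. Mx-Cre is a recombinase under an interferon-inducible promoter that is active in many tissues. No age is given in the labels, nor whether each sample is a mouse of its own, so p-values refer to the scatter among the 6 samples and this may be technical.

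Replication is prepared in G1, when the origin recognition complex, Cdc6 and Cdt1 load the ring-shaped Mcm2 to Mcm7 helicase onto DNA. Geminin blocks this step later in the cycle. In S phase the kinase Cdc7 and the factors Cdc45 and GINS turn the loaded ring into a moving helicase, and polymerases held by the PCNA clamp copy both strands. Many of these genes are switched on at the G1/S border by E2F transcription factors, so their RNA is abundant in dividing marrow precursors and low in mature granulocytes.

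Values are log2 RMA signals, and differences are KO minus wildtype on that scale. A gene was called at an adjusted p under 0.05 in limma over 20577 genes, each read at its brightest probe set that names it alone. Array medians lay between 3.73 and 3.86. Correlations across probe sets lay between 0.949 and 0.972 among KO samples, between 0.946 and 0.970 among wildtype samples, and between 0.858 and 0.932 across the groups. Gfi1b, the targeted gene, read 10.88, 11.63 and 11.67 in the samples labelled KO, against 5.83, 6.37 and 4.38 in wildtype samples (adjusted p = 0.00605). The signal thus goes against a loss of the transcript in the samples labelled KO, and the labels do not say which exons the floxed alleles remove, so it is not known here whether the probe set reads the deleted part. Whether the labels of the groups were exchanged cannot be settled from the files, and an exchange would turn the sign of every difference given here. All directions below are given for samples that carry the KO label. The leukocyte marker genes checked the tissue. Ptprc, the CD45 antigen of white blood cells, read 6.28, 5.49 and 7.70 in the samples labelled KO, against 10.55, 10.22 and 10.94 in wildtype samples (adjusted p = 0.0164), so this marker of leukocytes was detected in both groups, at a lower level under the KO label. Of the 5 leukocyte markers 2 fell and 3 did not pass, where 4.53% of all genes were called. Their differences lay below 0 in 4 and above in 1, at 0.52.

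Few replication genes were called between the samples labelled KO and wildtype samples. Of 44 measured members 1 fell, Cdc45l, and 0 rose. At an unadjusted p under 0.05 in limma, 4 members were lower and 1 was higher. Among all genes 4.53% were called, 2.33% lower and 2.20% higher in the samples labelled KO, against 2.27% of the members. An unadjusted p under 0.05 was reached by 5 members, 11.4% of them, against 19.2% of all genes. The median difference of the members was -0.24, beside 0.01 over all genes. Of the 44 differences 33 were below 0 and 11 above, within -1.31 and 1.17. The 2 groups did not overlap in 6 members (13.6%), against 25.2% of all genes.

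**Figure D1:**
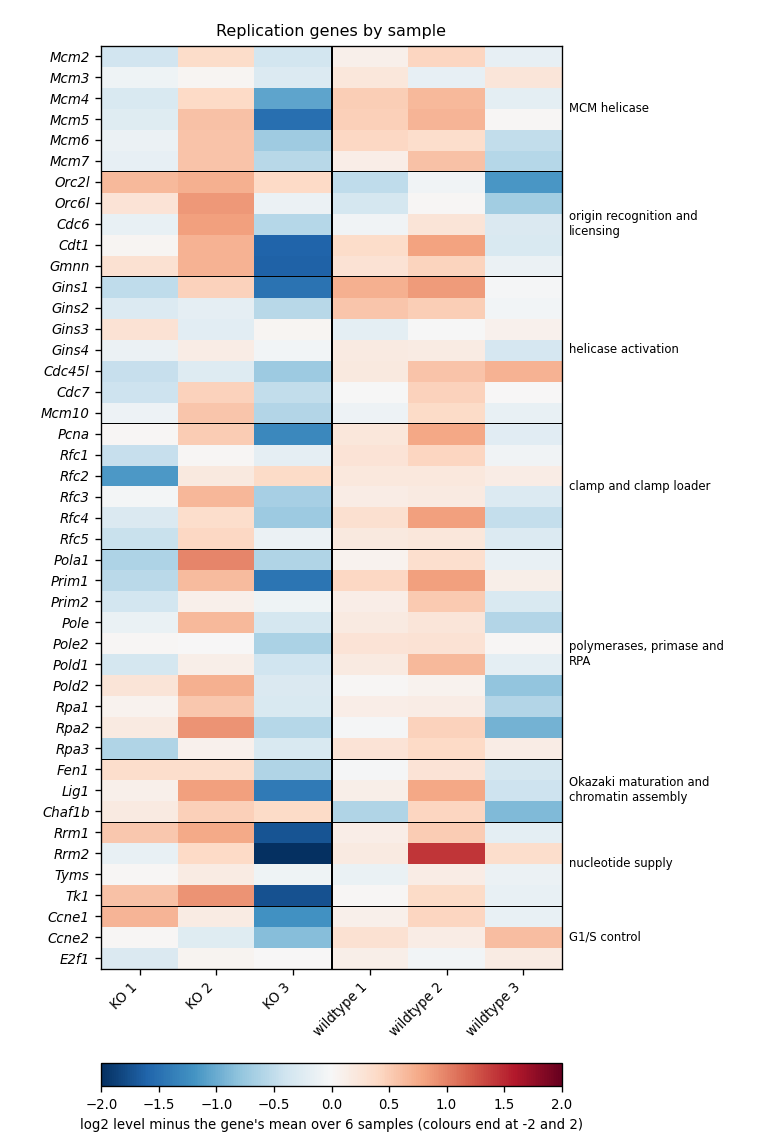
Log2 level of 44 replication genes (rows, by role) in 6 samples (columns), shown as the deviation from each gene's own mean over the 6 samples, red above and blue below. The column of KO replicate 3 holds the lowest value of 25 genes, and KO replicate 2 and wildtype replicate 2 hold most of the highest values.

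The spread followed samples. KO replicate 3 gave the lowest value of 25 of the 44 members, while it was lowest for 15.9% of all genes. KO replicate 2 was highest for 19 members and wildtype replicate 2 for 15. The mean level over the members was 6.75, 7.26 and 6.19 in KO replicates 1 to 3, against 6.99, 7.25 and 6.64 in wildtype replicates 1 to 3. The groups therefore overlapped, with KO replicate 2 level with wildtype replicate 2, and KO replicate 3 below every other sample. The median SD of a member was 0.53 among the samples labelled KO and 0.32 among wildtype samples (n = 3 each). Over all genes these were 0.21 and 0.17, but 10289 of the 20577 genes lie at or below the median level of 4.18, against 2 of the members. Without KO replicate 3 the median difference was 0.04, with 24 members above 0 and 20 below. Without KO replicate 2 it was -0.51, with 38 members below 0. Wildtype samples moved it as well, to -0.10 without wildtype replicate 2, with 29 members below 0, and to -0.40 without wildtype replicate 3, with 38 below 0. Only the removal of KO replicate 3 turned its sign.

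Proliferation markers and cell type markers also differed among the samples, some by group, and their part in the replication genes was not tested. All 14 proliferation markers, Mki67 among them, were lowest in KO replicate 3. Their mean level was 8.36, 8.43 and 6.42 in KO replicates 1 to 3 and lay between 7.85 and 8.27 in wildtype samples. The 17 erythroid markers averaged 8.98, 8.71 and 7.16 in KO replicates 1 to 3, against 6.55, 7.93 and 6.09 in wildtype replicates 1 to 3. They rose in 4 of 17 cases, Gata1 among them, and 13 did not pass, with 3 differences below 0 and the lowest at -0.25. Over all genes 4.53% were called. The 14 measured neutrophil markers averaged between 4.36 and 7.53 in the samples labelled KO and between 10.98 and 12.83 in wildtype samples, and 11 of them fell. Neutrophil markers were lowest in KO replicate 3, as the replication genes were, but the other samples did not share this order. Wildtype replicate 3 held the highest neutrophil mean (12.83) and the lowest wildtype mean of the replication genes (6.64). The 18 T and NK markers reached a mean of 7.33 in wildtype replicate 2, with 4.27 to 4.83 elsewhere. Of these 18, 0 passed in limma, with 1 at an unadjusted p under 0.05, beside 19.2% of all genes. The 9 measured monocyte markers averaged between 4.24 and 5.50 in the samples labelled KO and between 7.80 and 9.83 in wildtype samples, and 6 of them fell. The 9 measured B lymphoid markers averaged between 4.06 and 4.15 in the samples labelled KO, against 4.76 to 4.78 in wildtype samples. Cd79b and Ighm, 2 of them, fell. Their 9 differences ranged from -3.55 to 0.26 with a median of -0.18, and 3 lay above 0. At or below the median level of all genes were 4 of the 9. The 10 stem and progenitor markers averaged between 5.44 and 5.58 in the samples labelled KO, against 4.93 to 5.94 in wildtype samples. In bulk marrow, fewer cells of a type and less RNA per cell cannot be told apart.

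**Figure D2:**
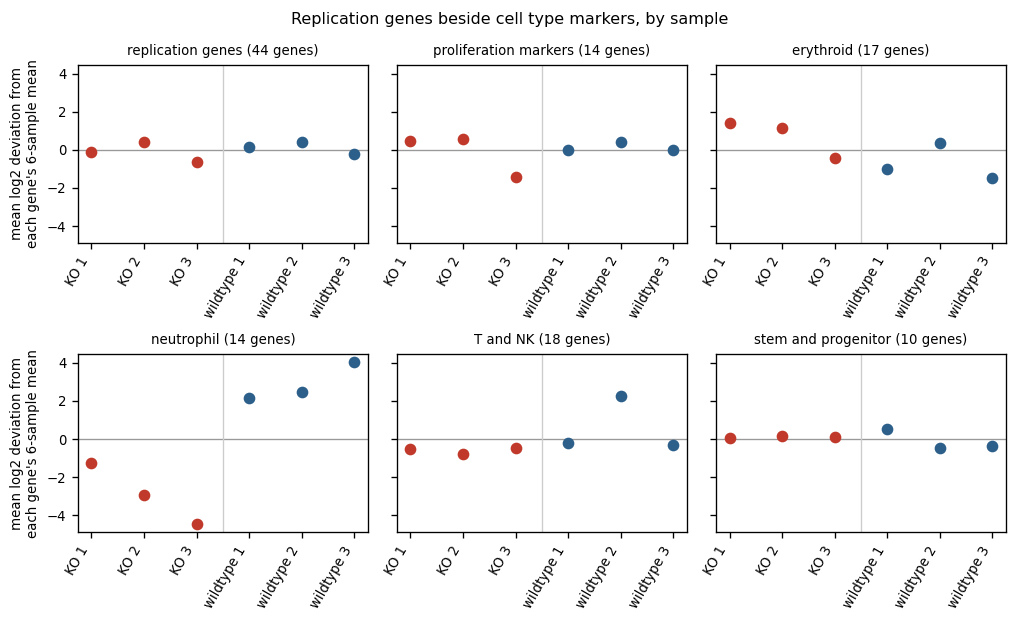
Mean log2 deviation from each gene's 6-sample mean (y axis) for the replication genes and 5 marker lists, in each sample labelled KO (red, left) and each wildtype sample (blue, right). The replication genes and the proliferation markers are lowest in KO replicate 3, the neutrophil markers separate the groups, and the T and NK markers stand high in wildtype replicate 2.

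Promoter sequences were read because many of these genes are known targets of E2F. E2F proteins bind short sites such as TTTCGCGC, TTTGGCGC and TTTCCCGC. These 3 sequences and their reverse complements (GCGCGAAA, GCGCCAAA and GCGGGAAA) were looked for in windows of 300 bases, 250 before to 50 after the gene start, from RefSeq on GRCm38.p6. Of 36 members with a window, 12 (33.3%) held a match, against 573 of 27025 genes (2.12%) with windows of the same length. Base composition was not matched between the sets. The stretches below run from 170 bases before the start to 30 after it, on the coding strand. They are shown because they belong to the 4 members with the smallest p-values among those that hold a whole match in this stretch. The matches of Pold1, Cdt1 and Lig1 lie outside it. The p-value of Mcm3 is that of its dim probe set. Capitals mark the matches, which overlap in Mcm5 and in the first pair of Mcm6.
Pole2, chr12:69228161-69228360, minus strand: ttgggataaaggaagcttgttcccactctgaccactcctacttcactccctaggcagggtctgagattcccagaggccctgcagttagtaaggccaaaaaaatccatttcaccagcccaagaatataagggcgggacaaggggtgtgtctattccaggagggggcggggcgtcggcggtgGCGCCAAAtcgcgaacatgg
Mcm5, chr8:75109339-75109538, plus strand: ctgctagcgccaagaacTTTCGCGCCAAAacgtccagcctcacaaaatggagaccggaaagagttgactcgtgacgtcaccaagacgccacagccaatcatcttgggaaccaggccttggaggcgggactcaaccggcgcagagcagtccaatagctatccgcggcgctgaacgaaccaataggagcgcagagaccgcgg
Mcm3, chr1:20820283-20820482, minus strand: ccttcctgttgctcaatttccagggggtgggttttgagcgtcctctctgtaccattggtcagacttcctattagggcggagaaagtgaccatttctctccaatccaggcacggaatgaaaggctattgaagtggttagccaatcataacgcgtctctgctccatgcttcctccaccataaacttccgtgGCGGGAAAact
Mcm6, chr1:128359676-128359875, minus strand: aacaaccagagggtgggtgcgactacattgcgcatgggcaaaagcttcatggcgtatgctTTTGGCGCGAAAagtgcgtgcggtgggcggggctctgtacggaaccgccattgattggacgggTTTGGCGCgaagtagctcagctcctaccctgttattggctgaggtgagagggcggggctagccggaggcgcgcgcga

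The 12 measured members with a match had a median difference of -0.19 and 0 of them passed in limma. The 23 with a window and no match had -0.17, and Cdc45l was the 1 that passed. Both sets were lowest in KO replicate 3, at -0.74 and -0.62 from their 6-sample mean. A match is a run of letters in this window and does not show that a factor binds there.

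At the probe set used for each gene, all 6 subunits of the Mcm2 to Mcm7 helicase had differences below 0. None passed, and 0 reached an unadjusted p under 0.05 in limma. Mcm5 read 7.78, 8.60 and 6.50 in KO replicates 1 to 3, against 8.49, 8.70 and 8.04 in wildtype replicates 1 to 3. KO replicate 2 lay among the wildtype samples and KO replicate 3 far below them. The difference was -0.78 with a 95% interval from -2.01 to 0.44 (adjusted p = 0.478), and a second probe set of Mcm5 gave -0.74. Mcm4 read 7.20, 7.90 and 6.45 in the samples labelled KO against 7.99, 8.16 and 7.30 in wildtype samples, again overlapping (difference -0.64, adjusted p = 0.46). Mcm6 and Mcm7 averaged 9.42 ± 0.64 and 9.94 ± 0.57 in the samples labelled KO, against 9.60 ± 0.50 and 10.04 ± 0.58 in wildtype samples (SD, n = 3). Mcm7 differed by -0.10 there, and its further probe sets by -0.05, 0.02 and 0.03. Mcm2 differed by -0.25. The probe set that names Mcm3 alone read 3.78, 3.91 and 3.59 under the KO label, against 4.09, 3.71 and 4.11 in wildtype samples, below the median of all genes, and says little about it. The 4 bright Mcm3 probe sets also name the locus LOC100045677. They differed by -0.66 to -0.33, with adjusted p between 0.568 and 0.712 over probe sets.

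None of the 5 origin recognition and licensing genes passed, and 1, Orc2l, had an unadjusted p under 0.05 in limma. Orc2l (now Orc2), a subunit of the origin recognition complex, read 6.64, 6.70 and 6.40 in KO replicates 1 to 3, against 5.49, 5.93 and 4.83 in wildtype replicates 1 to 3. The groups did not overlap and the difference was 1.17 ± 0.28 (standard error), which did not pass (adjusted p = 0.0748). Of the fits that left out 1 sample, only the one without wildtype replicate 2 called it (1.42, adjusted p = 0.0251). The other Orc2l probe sets differed by 0.67, also without overlap, and by 0.03. Orc6l (now Orc6), another subunit of the complex, read 6.70, 7.30 and 6.32 in the samples labelled KO against 6.09, 6.45 and 5.73 in wildtype samples. KO replicate 3 lay within the wildtype range, and the difference of 0.68 did not pass (adjusted p = 0.278). The members hold no other subunit of the complex.

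Cdt1, which brings the helicase to the origin, read 8.90, 9.55 and 7.26 in KO replicates 1 to 3, against 9.23, 9.66 and 8.56 in wildtype replicates 1 to 3. Only KO replicate 3 lay outside the wildtype range. Its difference was -0.58 (95% interval -2.01 to 0.85), and it was 0.07 without KO replicate 3. Gmnn, the Cdt1 inhibitor geminin, followed the same samples, at 6.03 in KO replicate 3, with 7.53 to 8.35 in the other 5. Cdc6, the loader ATPase, differed by 0.07, with KO replicate 2 highest at 6.58 and KO replicate 3 lowest at 5.19.

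Among the factors that activate the helicase, Cdc45l stood lower in the samples labelled KO. Cdc45l (now Cdc45), which with GINS and the Mcm ring forms the moving helicase, read 4.90, 5.11 and 4.63 in KO replicates 1 to 3, against 5.56, 5.94 and 6.06 in wildtype replicates 1 to 3. The groups did not overlap. It fell by 0.97 on the log2 scale, 1.96-fold, with a standard error of 0.19 and an adjusted p of 0.0447. The call is at the edge. Leaving out any 1 sample kept a difference of -1.12 to -0.85 and gave adjusted p between 0.06 and 0.128, past the threshold in none of the 6 cases. Over all probe sets its adjusted p was 0.0501, and a dimmer probe set differed by -0.07. The same gene was at 0.0816 after repeated quantile normalization and 0.0572 with an intensity trend.

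Gins2, a GINS subunit, read 5.06, 5.16 and 4.79 in the samples labelled KO, against 5.90, 5.84 and 5.28 in wildtype samples. The groups did not overlap, at this probe set or at a second one that differed by -0.84 (adjusted p = 0.0705 over probe sets). The difference at the brighter probe set was -0.67 and did not pass (adjusted p = 0.137). Gins1, its partner subunit, read 4.50, 5.46 and 3.52 in KO replicates 1 to 3 against 5.71, 5.85 and 4.97 in wildtype replicates 1 to 3, so KO replicate 2 lay inside the wildtype range (difference -1.02, adjusted p = 0.335). Gins3 and Gins4, which complete the GINS complex, differed by 0.08 and -0.01. The 4 subunits of 1 complex thus gave unequal differences, and the inequality itself was not tested. Cdc7, the kinase that fires origins, differed by -0.30, and Mcm10, a factor of helicase activation, by -0.09.

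**Figure D3:**
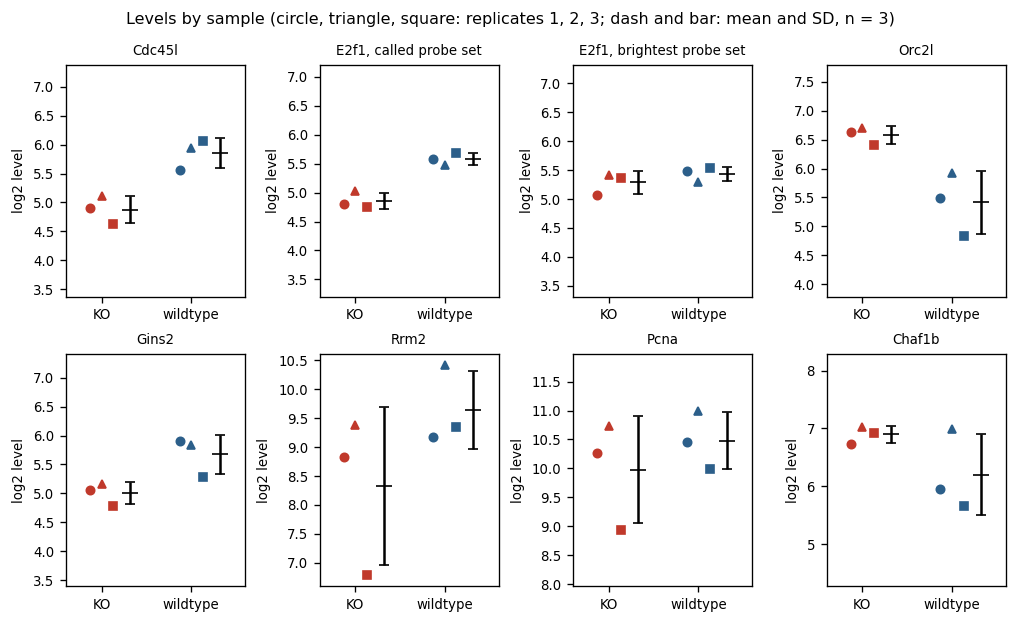
Log2 level (y axis, each panel 4 units tall) of 7 members in the samples labelled KO (red, left) and in wildtype samples (blue, right), with replicates 1, 2 and 3 as circle, triangle and square and the mean and SD as dash and bar. Cdc45l, Orc2l, Gins2 and the called E2f1 probe set separate the groups, while Rrm2 and Pcna show KO replicate 3 apart from the other KO samples.

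The sliding clamp and its loader did not pass, and all 6 differences were below 0, with 0 at an unadjusted p under 0.05 in limma. Pcna, the clamp that holds polymerases on DNA, read 10.26, 10.73 and 8.94 in KO replicates 1 to 3, against 10.45, 11.00 and 10.00 in wildtype replicates 1 to 3. KO replicate 3 alone lay below the wildtype range. The difference of -0.50 had an interval from -1.67 to 0.66, and it was 0.01 without KO replicate 3 and -0.25 without wildtype replicate 2. Rfc1, the large subunit of the clamp loader, read 6.11, 6.60 and 6.39 against 6.84, 7.00 and 6.50 in wildtype samples (difference -0.42, adjusted p = 0.304), with an overlap of the groups only at KO replicate 2 and wildtype replicate 3. Its 2 other probe sets did not overlap, at -0.41 and -0.51, and did not pass. Rfc4 read 6.01, 6.64 and 5.56 in KO samples and 6.61, 7.10 and 5.82 in wildtype samples, overlapping widely. Rfc2 departed from the common order, with KO replicate 1 at 6.44, well under the 7.73 to 7.97 of the other 5 samples. Rfc3 and Rfc5 differed by -0.03 and -0.10.

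Polymerases, primase and the single-strand binding protein RPA showed no call. Prim1, the catalytic subunit of primase, read 6.60, 7.78 and 5.69 in KO replicates 1 to 3, against 7.57, 7.97 and 7.27 in wildtype replicates 1 to 3. KO replicate 2 lay within the wildtype range (difference -0.91, interval -2.13 to 0.31). Prim2, the other primase subunit, differed by -0.24. Pole2, a subunit of the leading-strand polymerase, read 6.27, 6.26 and 5.61 in the samples labelled KO against 6.52, 6.54 and 6.28 in wildtype samples. KO replicate 1 and wildtype replicate 3 were almost level, and the groups just failed to overlap (difference -0.40, adjusted p = 0.376). Pole, its catalytic subunit, differed by 0.11.

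Rpa3, the small RPA subunit, read 6.16, 6.85 and 6.45 in KO replicates 1 to 3, against 7.03, 7.16 and 6.90 in wildtype replicates 1 to 3, without overlap. The difference of -0.55 had an adjusted p of 0.196. Rpa1 and Rpa2, its partners in the same trimer, differed by 0.20 and 0.33. Pola1, of the polymerase that starts each fragment, was highest in KO replicate 2 at 7.20 and differed by -0.17. Pold1 and Pold2, of the lagging-strand polymerase, differed by -0.42 and 0.46, where limma gave 0.446 and 0.523 as adjusted p.

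Genes of fragment joining and chromatin assembly did not pass. Fen1, the flap nuclease, read 9.54, 9.54 and 8.59 in KO replicates 1 to 3, against 9.17, 9.47 and 8.84 in wildtype replicates 1 to 3, a difference of 0.06. Lig1, the ligase that seals the fragments, read 7.53, 8.25 and 6.02 against 7.55, 8.21 and 7.01. For both genes KO replicate 3 was the lowest sample, and without it Fen1 differed by 0.38 and Lig1 by 0.30. Chaf1b, a subunit of the histone chaperone that follows the fork, read 6.74, 7.03 and 6.93 in the samples labelled KO, against 5.96, 6.99 and 5.66 in wildtype samples. Wildtype replicate 2 lay among the KO samples, and the difference of 0.70 did not pass (adjusted p = 0.33). Of the fits that left out 1 sample, only the one without wildtype replicate 2 called Chaf1b (1.09, adjusted p = 0.0227).

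The nucleotide supply genes had the widest spread among the samples labelled KO of all roles, with a median SD of 1.37 against 0.31 in wildtype samples (n = 3 each). Rrm2, the S phase subunit of ribonucleotide reductase, read 8.83, 9.38 and 6.79 in KO replicates 1 to 3, against 9.17, 10.41 and 9.35 in wildtype replicates 1 to 3. KO replicate 3 was the lowest and wildtype replicate 2 the highest of all 6 samples. The difference of -1.31 was the lowest of any member and had an interval from -2.97 to 0.36 (adjusted p = 0.376). It was -0.54 without KO replicate 3 and -1.83 without KO replicate 2. The 2 further probe sets of Rrm2 gave -1.20 and -0.98. Rrm1, the large subunit, read 9.31, 9.53 and 7.04 in the samples labelled KO, against 8.91, 9.27 and 8.58 in wildtype samples, so KO replicates 1 and 2 stood above the wildtype samples and KO replicate 3 below. The difference of Rrm1 was -0.29, and 0.50 without KO replicate 3. Tk1, the salvage enzyme thymidine kinase, had the same order, with 7.93, 8.25 and 5.60 against 7.37, 7.72 and 7.21. The probe sets that name Tyms alone were near the floor, and the brightest read 3.57, 3.71 and 3.48 in KO samples, against 3.42, 3.71 and 3.44 in wildtype samples. The bright Tyms probe set, which also names Tyms-ps, read 7.48, 8.10 and 6.98 in the samples labelled KO, against 7.58, 8.19 and 7.60 in wildtype samples (difference -0.27, adjusted p = 0.733 over probe sets).

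**Figure D4:**
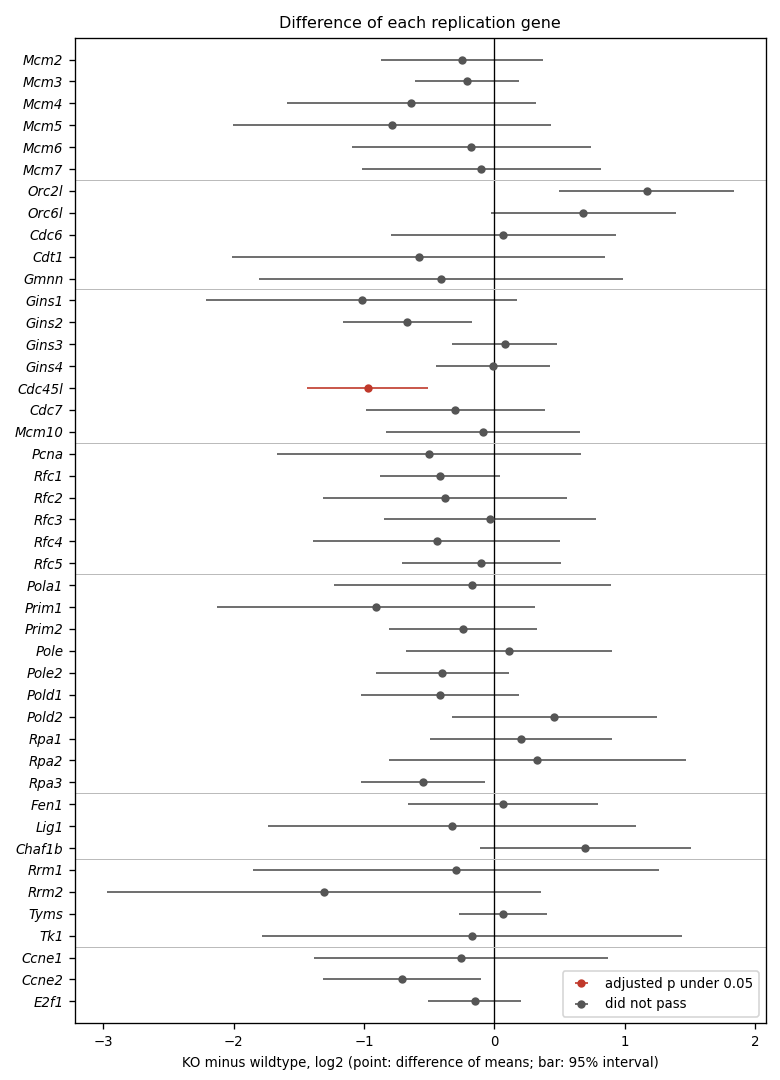
Difference between the samples labelled KO and wildtype samples (x axis, log2) for 44 replication genes, with limma's 95% intervals and lines between roles. Cdc45l is the 1 called gene (red), and of the other genes only Ccne2, Gins2, Orc2l and Rpa3 have intervals that leave out 0.

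Of the G1/S switch genes, E2f1 gave a call at 1 of its probe sets. E2f1, an activator of many of these genes, read 4.80, 5.02 and 4.76 in KO replicates 1 to 3 at that probe set. Wildtype replicates 1 to 3 read 5.58, 5.48 and 5.69. The groups did not overlap and it fell by 0.72 (standard error 0.13, adjusted p = 0.0386 over 45037 probe sets). The authors' deposited table gives an adjusted p of 0.0386 for that probe set. Its brightest probe set read 5.07, 5.42 and 5.37 against 5.49, 5.30 and 5.53, overlapping, with a difference of -0.15 (adjusted p = 0.655), and a dim further one differed by -0.13. It was the 1 called probe set of the 95 that name members (1.05%), against 2.93% of all probe sets, and it lost the call in 5 of the 6 fits that leave out a sample and kept it without wildtype replicate 2. Ccne2, a cyclin of S phase entry, read 4.46 in KO replicate 1 and 3.59 in KO replicate 3, with KO replicate 2 between them and a mean of 4.08 ± 0.45 (SD, n = 3), against 4.74, 4.58 and 5.05 in wildtype samples. It did not overlap and did not pass (difference -0.71, adjusted p = 0.188). Ccne1, the other cyclin E gene, read 6.74, 6.22 and 4.85 against 6.17, 6.49 and 5.92, with KO replicate 1 the highest and KO replicate 3 the lowest sample. Its difference was -0.26, and 0.29 without KO replicate 3.

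Probe sets of the same member mostly pointed the same way. Of 46 further probe sets that name a member alone, 33 had the sign of the one that represents the gene, and 26 of the 30 above the median level did. The exceptions at that level were 2 of Mcm7 and 1 each of Rfc3 and Prim2, with differences of 0.14 or less.

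Replication factors outside the members held 2 calls, both higher in the samples labelled KO. Of 46 such genes 2 rose, 0 fell and 44 did not pass, with a median difference of 0.01. Over all genes 4.53% were called, so 2 of 46 lies near that share. An unadjusted p under 0.05 in limma was reached by 12 of the 46, beside 19.2% of all genes. Blm, a helicase of replication fork repair, read 7.12, 6.90 and 6.91 in KO replicates 1 to 3, against 5.29, 5.67 and 4.47 in wildtype replicates 1 to 3, a rise of 1.83 (adjusted p = 0.028). Asf1a, a histone chaperone, read 8.81, 9.19 and 9.10 against 7.64, 8.20 and 7.10, a rise of 1.39 (adjusted p = 0.0489). In neither gene did the groups overlap. The remaining origin recognition subunits in this list did not pass. Orc5 differed by 0.96 without overlap (adjusted p = 0.156), Orc4 by 0.35, and Orc1 and Orc3 each by 0.01.

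Of 30 other E2F and G1/S regulators 1 rose, 1 fell and 28 did not pass, where 4.53% of all genes were called. An unadjusted p under 0.05 in limma was reached by 12 of the 30, beside 19.2% of all genes. E2f8, a repressor of the E2F family, read 8.98, 9.12 and 8.26 in the samples labelled KO against 7.53, 7.45 and 7.49 in wildtype samples, a rise of 1.29 (adjusted p = 0.0347). Skp2, which marks cell cycle inhibitors for degradation, read 4.26, 4.13 and 3.91 against 4.92, 4.73 and 4.79 and fell by 0.71 (adjusted p = 0.0453). Of 10 replication checkpoint genes 0 passed in limma, with 5 at an unadjusted p under 0.05, beside 19.2% of all genes. Their differences lay above 0 in 5 and below in 5, with a median of 0.06. The smallest p-values there were those of the checkpoint kinase gene Chek1, which differed by -0.93 (adjusted p = 0.0799), and of Rad9a, of the checkpoint clamp, with -0.63 (adjusted p = 0.141). The other 3 at an unadjusted p under 0.05, named after their values were seen, were higher: Atr by 0.98, Trp53 by 0.94 and Wee1 by 0.37. Of 14 proliferation markers 0 passed in limma, with 1 at an unadjusted p under 0.05, beside the same 19.2% of all genes. Top2a, the topoisomerase of dividing cells, differed by -1.11 (adjusted p = 0.204) and the mitotic kinase gene Plk1 by -0.72 (adjusted p = 0.468).

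Among 5978 other genes whose range over the 6 samples reached 1, the order of the samples in the members' mean level was most closely matched by Atad5. Its Pearson r with that mean was 0.997 over 6 samples. Atad5 and Tipin stand in the list of further replication factors. Dnajc9 and Ncapd2 each had 0.994, Gm17748 0.990 and Tipin 0.985. Atad5 read 5.29, 5.96 and 4.66 in KO replicates 1 to 3, against 5.56, 5.95 and 5.13 in wildtype replicates 1 to 3, so it too was lowest in KO replicate 3 and highest in KO replicate 2 and wildtype replicate 2. These correlations describe 6 samples that share their arrays, and the genes were picked for the value.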

How the data were processed

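The members and gene lists were chosen with earlier results of these data known. The deposited values are log2 signals made with RMA by the authors, per the submitters' processing notes. RMA corrects background, equalises the arrays by quantiles and summarises probes, so differences are relative to the rest of an array and low signals are compressed. No version of RMA is given in the sources used here. Scanner files were not used. Precision is limited by having 6 arrays. The authors' deposited table also gives log2 differences and p-values, which were used for comparison only.

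Of 45101 probe sets, 64 controls were left out. 37285 named 1 gene, 1796 several and 5956 none. Of 20724 symbols, 15159 were current in RefSeq (GRCm38.p6), 2676 were updated and 2889 kept. For each of 20577 genes the probe set of highest mean level was used. The comparison was made with limma 3.58.1 (lmFit and eBayes, both tails) under R 4.3.3. Benjamini-Hochberg adjustment ran over all of these genes, and separately over 45037 probe sets. There was no filter and no covariate. The fit was tested on simulated data. Values per sample are given for the 3 members with the smallest p-values in each role, members past the threshold at any probe set, and members without overlap that differ by at least 1, with KO replicate 2 of Ccne2 given through the group mean. In other pathway lists, called genes are named, or else the 2 smallest p-values. Any other gene was named after its values were seen. Plots were made in Python 3.11.15 (matplotlib 3.10.9).

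Same-numbered samples of the 2 groups did not deviate together over all genes (r of -0.14, -0.00012 and -0.015). The members' mean level, however, had the same order by number in both groups. It was 6.75, 7.26 and 6.19 in KO replicates 1 to 3, and 6.99, 7.25 and 6.64 in wildtype replicates 1 to 3. Whether this shared order comes from a pairing was not tested. The labels name no shared animal or day, so the numbers were not taken as pairs. Alternatives were the replicate number as a block, each sample left out, a second quantile normalization, the annotated table as source, intensity trend, robust or no moderation, array weights, a filter on level, the mean of all probe sets, no cross-hybridising probe sets, and other thresholds.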

Additional observations from a re-analysis of the deposited data

How the results depend on the processing

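The call of Cdc45l and the probe set call of E2f1 changed with the processing, and the cause was not tested. With the replicate number as a block, limma called 589 genes in place of 933, and 0 members lower, with 9 at an unadjusted p under 0.05. It called 0 member probe sets, with 25 at an unadjusted p under 0.05. The shares of all genes and probe sets at that level in this fit are not given here. The 9 and the 25 therefore cannot be read against them. With 1 sample left out, the genes called lay between 47 (without KO replicate 2) and 1445 (without wildtype replicate 2), the members called lower between 0 and 0, those called higher between 0 and 2, and the member probe sets called between 0 and 3. Orc2l and Chaf1b were the members called higher without wildtype replicate 2. Members called lower were also 0 with repeated quantile normalization, an intensity trend, array weights, the mean of all probe sets, no moderation and an adjusted p under 0.01. No moderation called 0 genes in all, with 3178 at an unadjusted p under 0.05. Thresholds of 0.1 and 0.01 called 1778 and 109 genes. Orc2l was the 1 member called higher at 0.1 and, tested among the genes above the median level, at 0.05. The median difference of the members, -0.24 with all samples, lay between -0.51 without KO replicate 2 and 0.04 without KO replicate 3.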
